A study of Mus musculus with 2 samples.

Results

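Genes that β-catenin-dependent Wnt signalling maintains in hepatocytes around the central vein were examined in 1 liver lacking Tmprss6 and 1 control liver. The 10 genes were Glul, Oat, Gulo, Slc1a2, Rhbg, Axin2, Rnf43, Znrf3, Lgr5 and Tbx3, of 18193 genes that a probe set named alone. They were chosen by symbol, through the array's platform annotation, and 22 of the 45101 probe sets named 1 of them and no other gene. Liver RNA of 2 male mice of the strain 129Sv/C57BL6, each aged 3 months and fasted overnight, was hybridised to Affymetrix whole-genome mouse arrays. The Tmprss6-deficient group was 1 Tmprss6-/- mouse made by gene targeting, and the control group was 1 mouse, whose genotype was not given in the sources used here. Tmprss6 encodes matriptase-2, a hepatocyte protease that restrains hepcidin production.

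Blood crosses the liver lobule from the portal vein to the central vein, and hepatocytes along that path carry out different tasks. Endothelial cells at the central vein release Wnt ligands and R-spondin, which stabilise β-catenin in the neighbouring hepatocytes. There β-catenin and TCF factors keep on genes of glutamine synthesis and of drug metabolism, together with genes that feed back on the Wnt pathway itself. RNA of whole liver holds no position, so zonation was not measured here, and fewer pericentral cells cannot be told apart from less RNA per cell.

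Promoter windows are shown for the enzymes Glul and Oat, lower in the Tmprss6-deficient liver, for Axin2, higher there, and for Slc1a2, the window that held the searched motif. RefSeq windows of build GRCm38.p6, from 250 bases before to 50 bases after the start of the gene, were found for 5 of the 10 genes, with 2 windows for Rnf43. Each is written 5′ to 3′ on the strand of the gene, with the TCF/LEF core motifs CTTTGA and CTTTGT, or their reverse complements TCAAAG and ACAAAG, in capitals. They lie at chr1:153899679-153899978 (Glul, plus strand), chr7:132576349-132576648 (Oat, minus strand), chr11:108920099-108920398 (Axin2, plus strand) and chr2:102706188-102706487 (Slc1a2, plus strand).
Glul: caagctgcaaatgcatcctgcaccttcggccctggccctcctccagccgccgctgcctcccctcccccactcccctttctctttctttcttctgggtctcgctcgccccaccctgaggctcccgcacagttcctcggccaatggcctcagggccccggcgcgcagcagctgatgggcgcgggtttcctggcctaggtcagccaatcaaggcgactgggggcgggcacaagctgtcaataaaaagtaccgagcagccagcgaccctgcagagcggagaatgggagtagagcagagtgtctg
Oat: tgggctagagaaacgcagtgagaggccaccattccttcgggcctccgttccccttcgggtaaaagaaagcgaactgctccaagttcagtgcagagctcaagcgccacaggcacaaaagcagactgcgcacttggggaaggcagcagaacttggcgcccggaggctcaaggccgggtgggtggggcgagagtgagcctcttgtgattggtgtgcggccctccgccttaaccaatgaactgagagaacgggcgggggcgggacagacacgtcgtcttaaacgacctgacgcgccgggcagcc
Axin2: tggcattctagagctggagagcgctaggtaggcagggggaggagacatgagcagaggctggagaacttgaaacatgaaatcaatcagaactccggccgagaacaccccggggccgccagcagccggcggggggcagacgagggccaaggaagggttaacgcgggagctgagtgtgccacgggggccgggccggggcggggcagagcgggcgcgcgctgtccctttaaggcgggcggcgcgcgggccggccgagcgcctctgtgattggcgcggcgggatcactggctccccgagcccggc
Slc1a2: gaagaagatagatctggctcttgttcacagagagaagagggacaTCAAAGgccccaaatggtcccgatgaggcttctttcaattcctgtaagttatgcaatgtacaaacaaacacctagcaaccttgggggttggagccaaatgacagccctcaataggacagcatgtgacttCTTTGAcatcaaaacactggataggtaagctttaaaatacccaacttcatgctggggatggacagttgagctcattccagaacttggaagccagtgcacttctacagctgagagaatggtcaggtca
The Slc1a2 window held CTTTGA in reverse complement, its first letter 206 bases upstream of the start, and in forward orientation 77 bases upstream, with no overlap between the matches. CTTTGT matched in 0 of these windows. Neither motif was found in the windows of Glul, Oat, Axin2 and Rnf43, and sequence outside the windows was not searched. On either strand, CTTTGA occurred in 16.0% and CTTTGT in 18.7% of all 32851 promoter windows of this length, and 31.2% held at least 1 of them.

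The values are MAS5 signals on a linear scale, 1 per probe set and array. A signal was called measured at or above a floor of 17.8, which is the median signal of the 2 arrays once control sets are set aside. Each gene was read on its brightest probe set by mean log2 signal, and a ratio has the Tmprss6-deficient liver on top. With 1 array per group there is no replicate error, no test and no p-value, and every difference is a difference between these 2 animals. The files give 1 measure of spread, the scatter of log2 ratios among sets that read the same gene. This SD was 0.46 below a mean signal of 64, 0.37 between 64 and 256, 0.33 between 256 and 1024 and 0.18 beyond 1024, and it leaves out variation between animals.

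The arrays held 22773 measured probe sets in the Tmprss6-deficient liver and 22272 in the control liver. Tmprss6 itself read 88.1 in the Tmprss6-deficient liver and 1868 in the control liver, 21.2-fold lower, in the direction of the labels, and whether its probe set lies in the deleted part was not given in the sources used here. Hamp, which encodes hepcidin, was 2.66-fold higher, at 17531 in Tmprss6-deficient and 6593 in control liver. All 9 named hepatocyte markers were measured on both arrays, Alb (albumin) at 27850 and 29345 in Tmprss6-deficient and control liver. Hepatocyte markers summed to 162246 in Tmprss6-deficient liver and 169136 in control liver, with 0 of 9 below the floor on both arrays, endothelial markers to 2031 and 2008 (0 of 15 below), and stellate cell markers to 3366 and 2788 (0 of 9 below). Kupffer cell markers summed to 3010 and 4156 (0 of 10 below), cholangiocyte markers to 42.4 and 129.6 (1 of 5, Sox9, below) and erythroid markers to 357 and 734 (1 of 6, Epb42, below). In the Tmprss6-deficient liver all 5 cholangiocyte markers were below the floor, so the 42.4 is a sum of signals not called measured. The control sets for 18S ribosomal RNA were between 11.7-fold and 14.9-fold lower in the Tmprss6-deficient sample, and the ratio of 3′ to 5′ signal was 2.91 in Tmprss6-deficient and 3.33 in control RNA for Actb and 0.878 and 0.934 for Gapdh. The part of these differences in the results was not tested.

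The 10 genes differed in both directions. On the brightest probe set, 3 enzymes and 2 transporters were lower in the Tmprss6-deficient liver, the 4 Wnt receptors and feedback regulators were split, and the transcription factor gene Tbx3 was higher. At 1.5-fold or more, 2 of the 10 genes were higher and 1 was lower, against 8.86% higher and 9.2% lower of the 12243 genes measured on at least 1 array. The median log2 ratio of the 10 genes was -0.17, with 7 of 10 below 0, against a median of -0.0050 and 50.4% below 0 over those 12243 genes. The bio and cre spike-in control sets had a median log2 ratio of -0.29, and scaling to them was not tried. By signal, the 4 genes with signals of 256 or more on both arrays were all lower, and of the 6 dimmer genes 3 were higher and 3 lower. Among the 4, Slc1a2 lay within the spread between probe sets, as did the lower genes Rhbg and Lgr5 among the 6. Ratios were below 0 in 61.1% of genes with a mean signal above 1024 and in 50.2% from 256 to 1024.

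**Figure D1:**
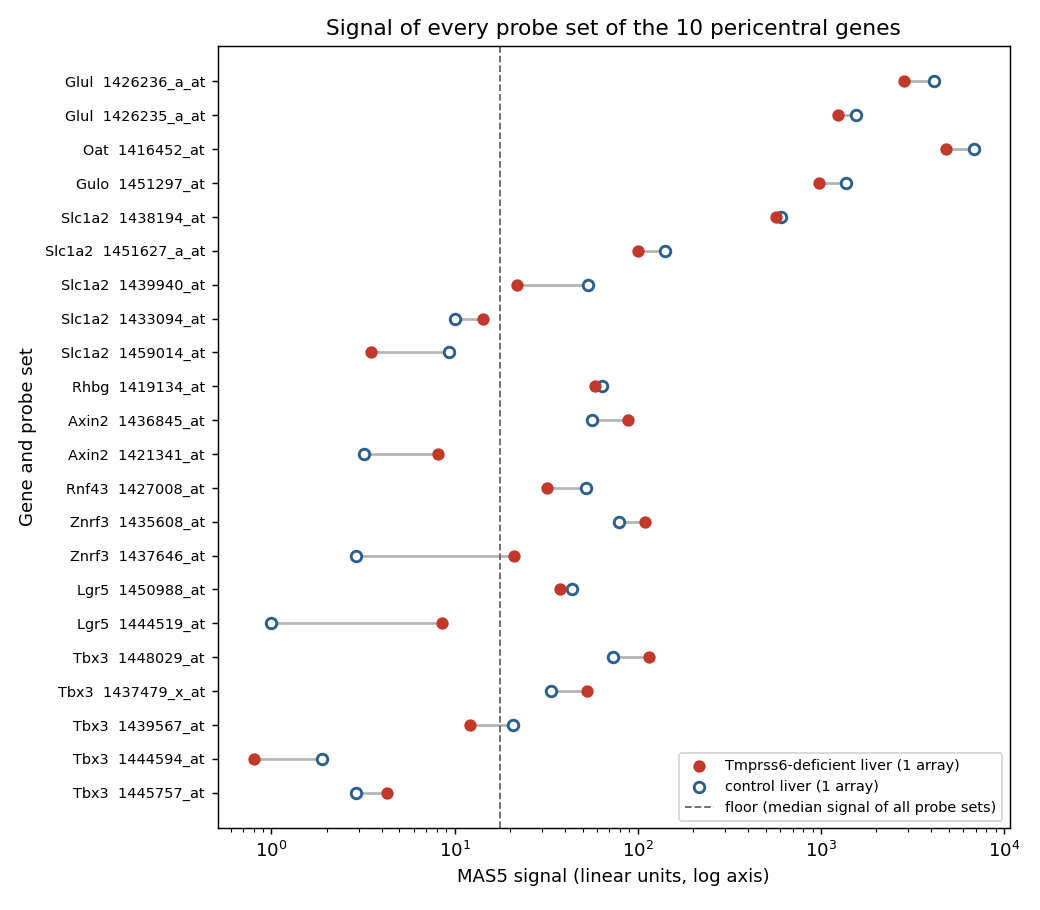
MAS5 signal (log axis) of all 22 probe sets of the 10 genes in Tmprss6-deficient liver (filled) and control liver (open), 1 array each, with the floor of 17.8 dashed. The filled points lie left of the open ones for both Glul sets, Oat and Gulo, and right of them for the brightest sets of Axin2, Znrf3 and Tbx3.

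The enzymes gave similar ratios to each other on their brightest sets. Glul, which encodes glutamine synthetase, joins ammonia to glutamate in the last hepatocytes before the central vein. Its brighter probe set 1426236_a_at read 2858 in Tmprss6-deficient liver and 4158 in control liver, 1.45-fold lower. The other Glul set, 1426235_a_at, read 1234 in Tmprss6-deficient liver and 1559 in control liver, 1.26-fold lower. Both sets thus pointed the same way, by 3.07 and 1.91 times the spread between probe sets at that signal.

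Oat encodes ornithine aminotransferase, a mitochondrial enzyme that turns ornithine toward glutamate. Its only probe set, 1416452_at, read 4803 in Tmprss6-deficient liver and 6823 in control liver, 1.42-fold lower. Gulo encodes L-gulonolactone oxidase, which carries out the last step of vitamin C synthesis in the mouse. Its only probe set, 1451297_at, read 971 in Tmprss6-deficient liver and 1378 in control liver, also 1.42-fold lower. The log2 ratios of Glul, Oat and Gulo were -0.54, -0.51 and -0.50, all short of 1.5-fold. Of the 1029 genes with a mean signal above 1024, 5.64% were lower by 1.5-fold or more, and 6.71%, 7.58% and 7.68% had ratios at or below those of Glul, Oat and Gulo. The genes of that signal range were themselves slightly shifted, with a median log2 ratio of -0.051 and 61.1% below 0.

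The transporters differed little on their brightest sets. Slc1a2 encodes a sodium-dependent glutamate carrier of the plasma membrane. Its brightest set, 1438194_at, read 568 in Tmprss6-deficient liver and 606 in control liver, a log2 ratio of -0.092 that lies within the spread of 0.33. A dimmer set, 1451627_a_at, read 100.9 in Tmprss6-deficient liver and 140.3 in control liver, a log2 ratio of -0.48. The set 1439940_at read 21.9 in Tmprss6-deficient liver, close to the floor, and 53.7 in control liver, 2.45-fold lower. All 3 measured sets of Slc1a2 therefore pointed down, but over a wide range of ratios. The remaining 2 sets stayed below the floor on both arrays, as did a further set that names Slc1a2 together with Gm13872 and was not counted. Rhbg, an ammonia transporter of the Rh glycoprotein family, read 58.2 in Tmprss6-deficient liver and 64 in control liver on its only set, 1419134_at. That log2 ratio of -0.14 lies within the spread of 0.46 for dim sets.

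**Figure D2:**
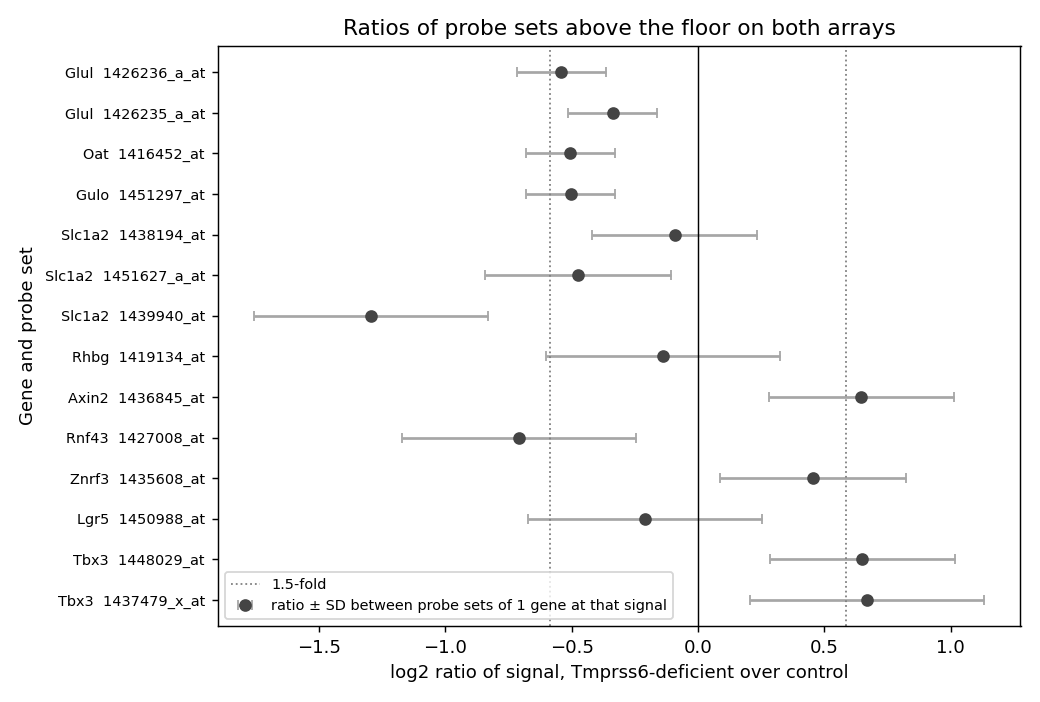
Log2 ratio, Tmprss6-deficient over control, of the 14 probe sets of the 10 genes at or above the floor on both arrays. Bars are the SD between sets of the same gene in that signal range, not an error between animals, and dotted lines mark 1.5-fold. Of the 14 sets, 10 lie below 0 and 4 above.

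Genes of the Wnt feedback loop did not share a direction. Axin2 encodes a scaffold of the complex that marks β-catenin for destruction, and is itself switched on by Wnt signalling. It read 88.3 in Tmprss6-deficient liver and 56.4 in control liver on 1436845_at, 1.57-fold higher. The other Axin2 set, 1421341_at, was below the floor on both arrays, at 8.1 in Tmprss6-deficient and 3.2 in control liver, and gives no ratio.

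Znrf3 and Rnf43 encode related membrane ubiquitin ligases that remove Frizzled receptors from the cell surface. Znrf3 read 108.9 in Tmprss6-deficient liver and 79.5 in control liver on 1435608_at, 1.37-fold higher. On the dim set 1437646_at it was above the floor in the Tmprss6-deficient liver only, at 21.1 against 2.9 in control liver, at least 1.19-fold higher. Rnf43 went the other way, at 31.9 in Tmprss6-deficient liver and 52.2 in control liver on its only set, 1427008_at, 1.64-fold lower. Lgr5, a receptor for R-spondins, read 37.8 in Tmprss6-deficient liver and 43.7 in control liver on 1450988_at, a log2 ratio of -0.21 within the spread of 0.46. Its other set, 1444519_at, was below the floor on both arrays, at 8.5 in Tmprss6-deficient and 1.0 in control liver.

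Tbx3 encodes a T-box transcription factor that is a Wnt target in liver. Its brightest set, 1448029_at, read 114.6 in Tmprss6-deficient liver and 73.0 in control liver, 1.57-fold higher. A dimmer set, 1437479_x_at, read 53.1 in Tmprss6-deficient liver and 33.4 in control liver, 1.59-fold higher. Another set, 1439567_at, was above the floor in the control liver only, at 12.1 in Tmprss6-deficient and 20.8 in control liver, at least 1.17-fold lower. The 2 sets measured on both arrays thus shared a direction and a size, and the last 2 sets were below the floor on both arrays.

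Ratios scatter more at these signals than among the bright enzymes. Of the 3895 genes with a mean signal from 64 to 256, 7.11% were higher by 1.5-fold or more, and 5.49%, 5.39% and 12.3% had ratios at or above those of Axin2, Tbx3 and Znrf3. Of the 2911 genes from the floor to 64, 13.1% were lower by 1.5-fold or more, and 9.0% had ratios at or below that of Rnf43. The ratios of Axin2, Tbx3, Rnf43 and Znrf3 were between 1.24 and 1.77 times the probe set spread of their signal range.

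**Figure D3:**
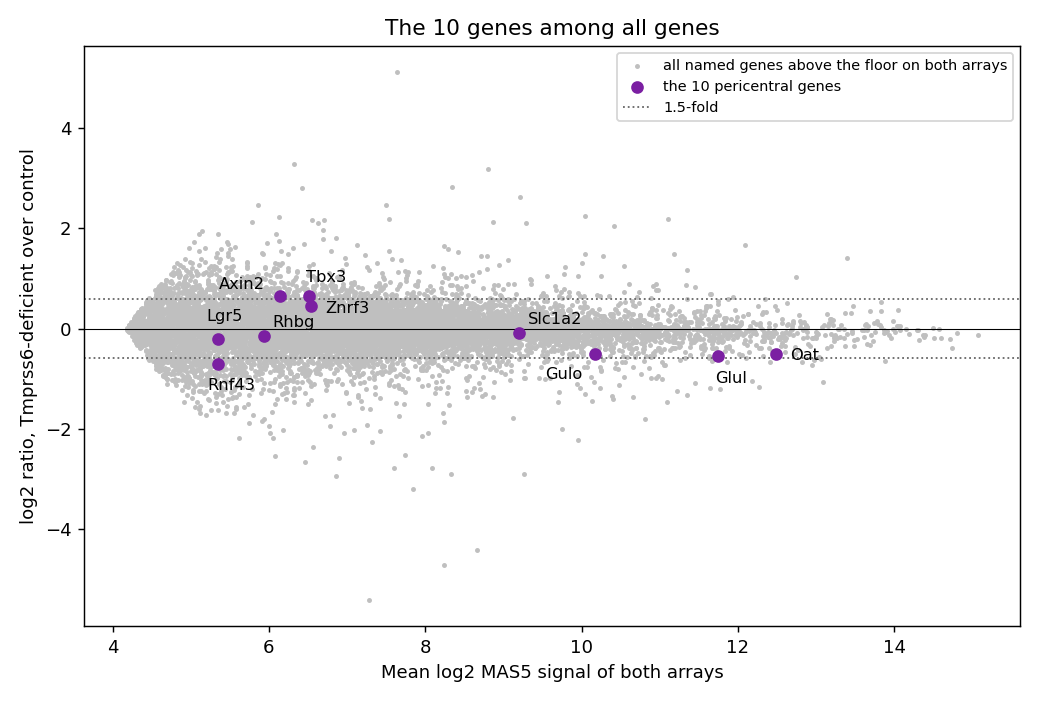
Log2 ratio, Tmprss6-deficient over control, against mean log2 signal for the 10243 genes at or above the floor on both arrays (grey), with the 10 genes named and dotted lines at 1.5-fold. Axin2 and Tbx3 lie above the upper line and Rnf43 below the lower line among dim genes, and Glul, Oat and Gulo lie just inside the lower line among bright genes.

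Across probe sets, 14 of the 22 were measured on both arrays, 1 in the Tmprss6-deficient liver only, 1 in the control liver only, and 6 on neither. Of the 14, 3 were 1.5-fold or more higher and 2 lower, against 9.62% and 7.97% of the 17433 named probe sets measured on both arrays. Glul, Slc1a2 and Tbx3 had more than 1 such set, and in all 3 genes these sets shared a direction, as did the second brightest set in 60.8% of the 4367 genes with a second measured set.

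Among 17 other genes known for pericentral expression, all measured, 14 had ratios below 0, against 50.4% of all measured genes and 61.1% of genes with a mean signal above 1024. At 1.5-fold, 8 of the 17 were lower and 0 higher, against 9.2% and 8.86% of all measured genes and, lower only, 5.64% of genes above 1024. Some of the 17, among them the lower genes Cyp7a1 and Lect2, had mean signals below 1024, where the 5.64% does not apply. The list median was -0.48 on the log2 scale. Cyp7a1, which starts the classical route of bile acid synthesis, read 225 in Tmprss6-deficient liver and 1672 in control liver. Cyp1a2, a cytochrome P450 of caffeine and drug oxidation, was 2.35-fold lower, at 1559 in Tmprss6-deficient liver and 3664 in control liver. Lect2, which encodes a secreted hepatocyte protein and is a β-catenin target, was 2.31-fold lower, and Nr1i3, which encodes the xenobiotic receptor CAR, was 1.69-fold lower. Cyp2e1, an ethanol-oxidising P450 named after its value was seen, read 23076 in Tmprss6-deficient liver and 22940 in control liver. Probes for a Cyp2c or Gstm gene may also read its close relatives, which was not tested.

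Ratios were also mostly below 0 among genes known for periportal expression, at the other end of the lobule. Of the 18 genes, all measured, 13 had ratios below 0, 5 reached 1.5-fold lower and 0 reached 1.5-fold higher. Among all measured genes 50.4% were below 0, 9.2% reached 1.5-fold lower and 8.86% reached 1.5-fold higher. Most but not all of the 18 had a mean signal above 1024, where 61.1% of genes were below 0 and 5.64% reached 1.5-fold lower. The median log2 ratio of the 18 genes was -0.18. The share below 0 was 82.4% of the other pericentral genes, 72.2% of the periportal genes and 70% of the 10 genes. Hsd17b6, a hydroxysteroid dehydrogenase gene, read 103.8 in Tmprss6-deficient liver and 708.7 in control liver. Aldh1b1, a mitochondrial aldehyde dehydrogenase gene, was 2.01-fold lower, Igfals, which encodes a binding partner of circulating IGF, was 1.77-fold lower, and Cyp2f2, a periportal P450, was 1.66-fold lower. Whether the pericentral and periportal lists differ from each other was not tested.

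**Figure D4:**
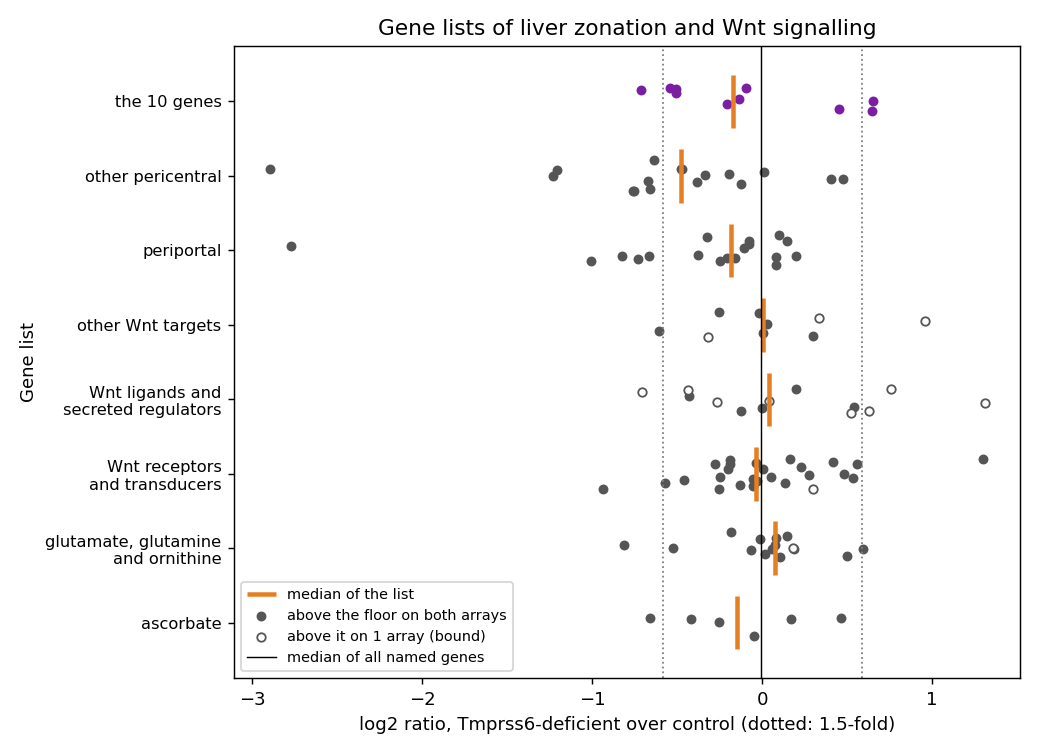
Log2 ratio, Tmprss6-deficient over control, of each measured gene in the 10 genes and 7 related lists, with list medians (thick lines), the median of all named genes (thin line) and 1.5-fold (dotted). Open points are bounds from genes above the floor on 1 array, and the median is lowest for the other pericentral genes, at -0.48.

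Further Wnt target genes were mostly dim and did not share a direction. Among 9 measured genes, 1 reached 1.5-fold higher and 1 reached 1.5-fold lower, against 8.86% and 9.2% of all measured genes. Their median log2 ratio was 0.0058. Tnfrsf19, a TNF receptor family gene, read 34.6 in Tmprss6-deficient liver and lay at the floor in control liver, at least 1.94-fold higher, and the adhesion receptor gene Cd44 was 1.52-fold lower. The log2 ratio was 0.30 for the cyclin gene Ccnd1, with sets of opposite sign, 0.026 for Myc and -0.26 for Notum, which encodes a secreted Wnt deacylase.

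Wnt ligands and secreted regulators were near the floor, where 8 of 13 measured genes were above it on 1 array only and 7 further genes on neither. Wnt2, a ligand of liver endothelium, read 37.7 in Tmprss6-deficient liver and 41.1 in control liver. Rspo3, the R-spondin of central vein endothelium, read 48.6 in Tmprss6-deficient liver and 42.4 in control liver, and Wnt9b was below the floor on both arrays. Wnt11 read 44.1 in Tmprss6-deficient liver and 13.0 in control liver, at least 2.48-fold higher. Rspo2 was at least 1.69-fold and the Wnt antagonist gene Frzb at least 1.54-fold higher, and Wnt4 was at least 1.63-fold lower, each read on a brightest set above the floor on 1 array only. The log2 ratio was 0.54 for Wls, which encodes the carrier that brings Wnt proteins to the cell surface, with sets of opposite sign, and -0.43 for Wnt5b. At 1.5-fold, 3 of the 13 measured genes were higher and 1 was lower, against 8.86% and 9.2% of all measured genes. The median log2 ratio of the 13 genes was 0.040. It was 0.45 with the floor at its lower setting (30th percentile) and 0.16 with the floor as a pseudocount. With the mean of all probe sets it was -0.064.

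Receptors and transducers of the pathway lay mostly within 1.5-fold, with 25 of 27 measured genes there, against 10032 of 12243 among all measured genes. Their median log2 ratio was -0.034. Ctnnb1, which encodes β-catenin, read 2613 in Tmprss6-deficient liver and 2669 in control liver on the brightest of 3 sets, which disagreed in sign. Lrp5, a Wnt co-receptor, was 2.46-fold higher on its only set, at 147.8 in Tmprss6-deficient liver and 60.2 in control liver. Fzd6, a Frizzled receptor, was 1.91-fold lower, at 22.6 in Tmprss6-deficient liver and 43.2 in control liver. Apc, a scaffold of the β-catenin destruction complex, had a log2 ratio of 0.41, though its sets disagreed in sign, and Lgr4, the other R-spondin receptor measured, had -0.19. The ratios of Fzd8 and of the Dishevelled gene Dvl2 were -0.57 and 0.56.

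Around the reactions of Glul, Oat and Slc1a2, 13 of 15 measured genes of glutamate, glutamine and ornithine handling lay within 1.5-fold. Among all measured genes it was 10032 of 12243. The 15 genes had a median log2 ratio of 0.078, and 2 of them also stand on the periportal list. Got1, a cytosolic aspartate aminotransferase gene, was 1.51-fold higher, at 3208 in Tmprss6-deficient liver and 2128 in control liver. Slc38a2, an amino acid transporter gene, was 1.75-fold lower, at 1072 in Tmprss6-deficient liver and 1880 in control liver. Otc, the ornithine transcarbamylase gene of the urea cycle, had a log2 ratio of -0.52, though its sets disagreed in sign, and Slc25a15, the mitochondrial ornithine carrier gene, had 0.50 with both its sets higher. Beside Gulo, the 6 measured genes of ascorbate synthesis and transport had a median of -0.15. Among them Rgn, the gluconolactonase gene that acts just before Gulo and also stands on the pericentral list, was 1.58-fold lower. It read 2967 in Tmprss6-deficient liver and 4694 in control liver. Akr1a1, the reductase gene upstream of it, was 1.34-fold lower, with all 4 of its sets lower. Slc23a1 and Slc23a2, which encode the ascorbate transporters, had log2 ratios of 0.47 and -0.25.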

How the data were processed

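Per the labels' protocols, RNA from column purification was turned into cDNA and then into labelled RNA by in vitro transcription. It was read on 1 array for each of 2 mice grouped by title. The authors deposited intensity signals, which the submitters' processing notes credit to MAS5, with no version or settings given in the sources used here. The signals are linear, with a trimmed mean of 100.001 on both arrays, so they look already scaled. Detection calls were not used here, and signals near background are noisy.

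Gene names came from the platform annotation, where 932 of 45101 probe sets named several genes and 9211 were not listed. Both arrays were scaled to 1 trimmed mean, leaving out 2% at each end, and signals under the floor were set to it before log2. A gene above the floor on 1 array got a bound. Depth has no counterpart on arrays, and the number of arrays limits the precision. Probe set spread compares the log2 ratios of a gene's 2 brightest measured sets, over 4367 genes grouped by mean signal, and is their root mean square difference divided by √2. Percentages at or beyond a member's ratio are counts over genes of its signal range. RefSeq tables of GRCm38.p6 gave names and promoter windows. Python 3.11.15, pandas 2.3.3 and statsmodels 0.14.6 were used, and the procedure was tested on simulated arrays. The members, 13 further lists, floor and alternatives were chosen with earlier results of these data known. Named genes are all members, Tmprss6, Hamp, up to 4 genes of each list with the largest ratios, bounds of 1.5-fold or more, and Ctnnb1, Apc, Lgr4, Rspo3, Wnt2, Wnt9b and Alb whatever their values. No gene is named as most like a member in pattern, since 2 arrays give 1 ratio. Alternatives were other scalings (median, none, quantile, loess), a lower floor (30th percentile) and a higher one (70th), a pseudocount equal to the floor, other probe set rules, and leaving out bounds.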

Additional observations from a re-analysis of the deposited data

How the results depend on the processing

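No paired analysis was possible because each group held 1 array. All 10 members kept the sign of their ratio under every alternative that gave a value, but several alternatives could not have turned it. Leaving the signals unscaled, moving the floor, the pseudocount and leaving out bounds could not turn the sign of these ratios. Other probe set rules changed nothing for the 4 genes with 1 probe set. Nor did they for Axin2, Lgr5 and Znrf3, which had 1 set measured on both arrays. Scaling to the spike-in control sets was not tried. Glul gave no ratio with plain probe sets only, and Lgr5 and Rnf43 gave none with the higher floor (70th percentile). The ratio of Glul lay between -0.61 and -0.44, of Oat between -0.57 and -0.42 and of Gulo between -0.57 and -0.47. That of Axin2 lay between 0.52 and 0.65, of Tbx3 between 0.54 and 0.66 and of Rnf43 between -0.77 and -0.49. The median of the 10 genes ranged from -0.32, with the mean of all probe sets, to -0.11. At the 1.5-fold threshold, scaling to the median left 1 gene higher and 2 lower, and the mean of all probe sets gave 2 lower, with Slc1a2 at -0.62. That higher floor gave 0 lower, and the floor as a pseudocount gave 0 higher and 0 lower. Alternative scalings moved the median of all genes to between -0.064 and -0.0044. The median of the other pericentral genes lay between -0.54 and -0.46 and that of the periportal genes between -0.25 and -0.16. The median of Wnt ligands was 0.45 with the lower floor (30th percentile) and 0.16 with the pseudocount. With the mean of all probe sets it was -0.064. List medians near 0 changed sign for other Wnt targets (5 alternatives), Wnt ligands (2), Wnt receptors (2) and hepatocyte markers (2), and the cause was not tested. Of the 10 genes, 6 read below 256 on both arrays, where signal over background limits what a ratio can show.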

Other observations

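Marker genes of other liver cells were read against 9.2% lower and 8.86% higher by 1.5-fold or more among all measured genes. Of 10 Kupffer cell markers, 3 were lower and 1 was higher at that size, with a median log2 ratio of -0.47. Among them the complement gene C1qb was 1.89-fold lower on the brightest of 3 sets, all of them lower, and Clec4f and Vsig4, receptors of resident liver macrophages, were 1.76-fold and 1.72-fold lower. Marco, a scavenger receptor gene of macrophages, was 1.76-fold higher on the brighter of 2 sets, both higher. Of 15 endothelial markers, 3 were higher and 4 lower, with a median of 0.13. Lyve1, a hyaluronan receptor gene, read 152.1 in Tmprss6-deficient liver and 32.3 in control liver, and Oit3 was 1.57-fold higher. Egfl7, a secreted endothelial factor gene, was 1.91-fold higher on its brightest set, though its sets disagreed in sign. In the Tmprss6-deficient liver Clec4g was 1.98-fold lower, and Cdh13 and Emcn, above the floor in the control only, were at least 1.82-fold and 1.67-fold lower. All 9 measured stellate cell markers lay within 1.5-fold, with the largest log2 ratios 0.48 for Hgf, 0.38 for Dcn, 0.36 for Col3a1 and -0.37 for Col1a2. All 4 measured cholangiocyte markers were above the floor in the control only, among them the keratin gene Krt19, at least 2.76-fold lower, and the claudin gene Cldn7, at least 1.63-fold lower. Of 5 measured erythroid markers, 3 had ratios below 0 and 2 above. Alas2, the erythroid gene of heme synthesis, was 2.56-fold lower, and Klf1, an erythroid transcription factor gene above the floor in the control only, was at least 3.23-fold lower. The globin gene Hbb-b2 was 1.44-fold higher on its brighter set, with its sets in opposite directions. Of 9 hepatocyte markers, 1 was higher by 1.5-fold or more, the nuclear receptor gene Hnf4a at 1.54-fold with all 4 sets higher, and 0 were lower, with log2 ratios of -0.56 for Tat, 0.35 for Fgb and -0.21 for Apob. Of 18 bio and cre spike-in control sets, 17 had a lower signal on the Tmprss6-deficient array, with a median log2 ratio of -0.29. That is larger in size than the log2 ratios of Lgr5 (-0.21), Rhbg (-0.14) and Slc1a2 (-0.092). It is also larger in size than the median of the 10 genes (-0.17). The part of this offset in the ratios was not tested. Control sets named dap, lys, phe and thr were not among the 18, and their ratios went both ways.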
